A study of Mus musculus with 8 samples.

Results

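Of the 5671 DSB-seq peaks of Chd1 KO ES cells, 80 lay away from genes' start sites on a tract of strictly alternating C and G. Within that list they were chosen by summit position and sequence, without further use of their signal. Like every peak of the list, each had already passed the authors' q-value cutoff in Chd1 KO. The summit had to lie more than 1 kb from every annotated transcription start site (TSS) and outside coding sequence, which 1892 peaks did and which are called distal here. The peak interval had to hold an alternating C-G tract of at least 12 bp and no perfect repeat of CA or TG of 20 bp or more. The remaining 1812 distal peaks, and the control list of 54 peaks, served for comparison.

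DSB-seq labels DNA ends in fixed nuclei with terminal transferase, after which the labeled DNA is captured and sequenced. The cells were established mouse ES cell lines, either Chd1 KO (Chd1Δ/Δ, no intact allele) or control (Chd1fl/Δ, 1 floxed allele and 1 deleted allele), so that both genotypes carried at least 1 deletion of Chd1. Both genotypes had 2 replicates, which the authors combined before peaks were called on mm9, leaving 1 list per genotype. No value given here therefore has a replicate error, and peaks of 1 list are not replicates, so intervals are given without p-values. Intervals of shares cover counting error only and those of medians the spread from peak to peak, both as if sites were independent. The control samples are titled WT in their labels. The lists hold positions and no expression values, so the ES cell label could not be checked against markers.

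Chd1 uses ATP to move and space nucleosomes, recognizes methylated lysine 4 of histone H3 and is best known at active promoters. Alternating C and G is the sequence that most readily turns from right-handed B-DNA into left-handed Z-DNA, and alternating CA, which is also an alternation of pyrimidine and purine, does so less readily. In the mouse genome such tracts often sit inside or next to CA repeats, and being rich in CpG they can be methylated.

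The tracts are printed on the plus strand of mm9, with the tract in capitals and 40 bases on each side in lower case. The first pair is shown because a control peak also lay on these tracts.
Near Ppp4r2, chr6:100859846-100859952: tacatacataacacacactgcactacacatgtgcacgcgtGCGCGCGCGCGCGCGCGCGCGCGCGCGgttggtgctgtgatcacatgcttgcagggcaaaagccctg
Near Tspan8, chr10:115317150-115317252: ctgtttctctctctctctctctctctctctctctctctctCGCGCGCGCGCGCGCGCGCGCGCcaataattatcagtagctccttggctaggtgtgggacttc
The next 3 were among the strongest peaks, and show how different the sequence around the tract could be.
Icam1, chr9:20825037-20825137: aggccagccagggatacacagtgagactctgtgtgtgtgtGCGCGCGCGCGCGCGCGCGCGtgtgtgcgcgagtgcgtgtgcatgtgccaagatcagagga
Near Gm7931, chr5:46533071-46533163: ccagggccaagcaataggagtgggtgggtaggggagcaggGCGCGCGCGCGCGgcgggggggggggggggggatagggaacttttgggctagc
Near SNORA17, chr1:139322440-139322537: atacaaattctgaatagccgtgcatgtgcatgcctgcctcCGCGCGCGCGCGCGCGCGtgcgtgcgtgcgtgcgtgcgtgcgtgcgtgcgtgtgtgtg
The last 3 are the longest tract, a tract between a TG and a GA repeat, and, chosen after the values were seen, a tract in a GC-rich region.
Near Gm14617, chr2:174653820-174653928: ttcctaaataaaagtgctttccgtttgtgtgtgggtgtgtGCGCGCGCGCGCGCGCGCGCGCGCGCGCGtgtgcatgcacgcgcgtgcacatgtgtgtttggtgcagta
Rapgef4, chr2:72022957-72023063: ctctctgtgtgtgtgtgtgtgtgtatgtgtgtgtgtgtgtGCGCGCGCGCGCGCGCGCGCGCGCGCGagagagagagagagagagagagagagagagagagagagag
Nr2f2, chr7:77506707-77506798: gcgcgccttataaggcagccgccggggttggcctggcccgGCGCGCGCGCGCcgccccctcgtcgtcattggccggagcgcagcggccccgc

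The fold enrichment of a peak is the authors' ratio of reads at its summit to the local background in the same library, each plus 1. Among the 80 peaks it ran from 3.40 to 8.40 with a median of 5.26 (95% interval 4.92 to 5.67). From the fold enrichment and the p-value, between 14 and 44 reads stood at each summit, with a median of 24 (22 to 25). The peaks were 200 to 544 bp wide, with a median of 302 bp (277 to 328). The other distal peaks had a median fold enrichment of 4.78 (4.78 to 4.87), a median of 21 reads (21 to 22) and a median width of 273 bp (268 to 279). A peak on a C-G tract was the higher of the 2 in 62.0% of all pairings with another distal peak, so the distributions overlapped widely. The background at the summit was alike, with medians of 3.45 and 3.56 reads.

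Compared by sequence class, peaks on C-G tracts resembled those that hold a CA or TG repeat of 20 bp or more. Those 501 peaks had a median fold enrichment of 5.26 (5.24 to 5.50), and a peak on a C-G tract was the higher in 49.4% of pairings with them. Of these 501 peaks, 454 (90.6%, 87.8% to 92.9%) also held an alternating C-G tract of at least 12 bp. The 1133 distal peaks with another run of at least 12 G or C had a median of 4.68 (4.59 to 4.77), and the 178 with no such run had 4.32 (4.22 to 4.57). Against these, the peak on a C-G tract was the higher in 66.1% and 71.5% of pairings.

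**Figure D1:**
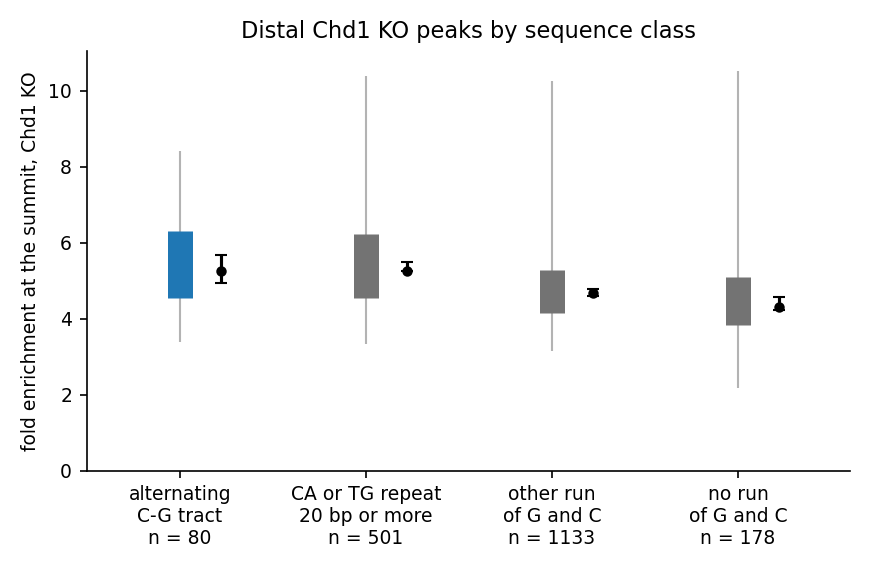
Fold enrichment at the summit of distal Chd1 KO peaks in 4 sequence classes (x axis, with the number of peaks). Thick bars span the quartiles, thin lines the lowest to highest peak, and black points give the median with its 95% interval. The medians of the first 2 classes are both 5.26 and lie above 4.68 and 4.32 in the other 2.

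The strongest of the 80 lay on chromosome 6, 76.3 kb from the TSS of Ppp4r2, a regulatory subunit of protein phosphatase 4 (chr6:100859710-100860253). Its fold enrichment was 8.40 from 42 reads, and only 1 of the other tracts was longer than its 27 bp. The next, in intron 2 of 6 of Icam1, a cell adhesion molecule of the immunoglobulin family, had a fold enrichment of 8.04 from 44 reads on a tract of 21 bp (chr9:20824943-20825270). A peak 22.7 kb from the TSS of Gm16236 reached 7.67 from 32 reads on a 24-bp tract that ran into a CA repeat. The nearest protein-coding TSS to this peak was that of Bard1, 85.9 kb away. Such a gene is given for this peak only, and a link between the peak and the gene was not tested.

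Not all strong peaks had a long tract. Near Gm7931 a 13-bp tract ran into a stretch of G, giving a run of 34 bp of G and C, and its fold enrichment was 7.65 from 31 reads. The peak 58.6 kb from a SNORA17 copy (7.47, 32 reads) lay on an 18-bp tract within 63 bp of alternating purine and pyrimidine. Near Gm15271 the fold enrichment was 7.41 from 30 reads on a 20-bp tract.

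The longest tract, 29 bp, lay 10.3 kb from the TSS of Gm14617 and had a fold enrichment of 6.28 from 27 reads, the 22nd of the 80. A 25-bp tract near Gm12784 had 7.04 from 37 reads. In intron 12 of 32 of Rapgef4, which encodes a cAMP-activated exchange factor for Rap proteins, a 27-bp tract had 5.24 from 23 reads, close to the median of all 80. The longest tracts thus spanned fold enrichments from near the middle to the top of the group.

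Across the 80 peaks the median fold enrichment was 4.83 (4.20 to 5.53) for the 19 with tracts of 12 to 15 bp and 5.33 (4.54 to 5.90) for the 28 with 16 to 19 bp. It was 5.67 (4.92 to 6.45) for the 27 with 20 to 23 bp and 6.66 (5.24 to 8.40) for the 6 with 24 bp or more. The intervals of all these length groups overlapped, the shortest with the longest included, and that of the 6 longest was their full range. As a description over 80 peaks of 1 pooled library, fold enrichment had a Pearson's r of 0.31 and a Spearman's rho of 0.33 with tract length. With the longest run of G and C, alternating or not, these were 0.43 and 0.39. With the stretch of alternating purine and pyrimidine that holds the tract they were −0.08 and 0.06. With the CpG density of the peak they were −0.36 and −0.47, and with its GC content −0.33 and −0.34. With the longest CA or TG stretch anywhere in the peak, which could be as short as 4 bp, they were 0.01 and 0.01. The highest values were with the width of the peak, 0.58 and 0.58, over which CpG density and GC content were averaged, so those values are not independent of width. Peaks of 12 or 13 bp, just inside the length limit, had a median of 5.02 (n = 11), and distal peaks just outside it, with a longest tract of 10 or 11 bp, had 4.78 (n = 13). At the limit on CA or TG repeats, peaks with 18 or 19 bp had 5.16 (n = 20) and those left out with 20 or 21 bp had 5.73 (n = 16).

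**Figure D2:**
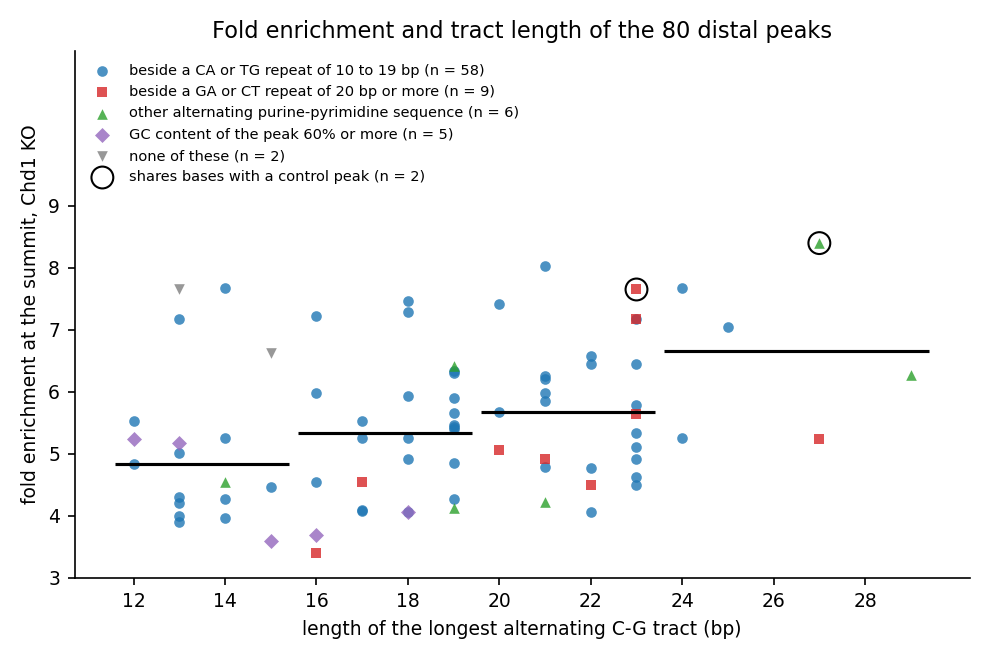
Fold enrichment at the summit (y axis) against the length of the longest alternating C-G tract in bp (x axis) for the 80 peaks. Colors mark the surroundings of the tract, circles the 2 peaks that share bases with a control peak, and black lines the medians of 4.83, 5.33, 5.67 and 6.66 in the 4 length groups.

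The sequence around the tracts was compared next, and the rule itself bears on part of it, since the tract is an alternation of purine and pyrimidine and CA or TG repeats can be 19 bp at most. In 34 of 80 peaks the alternation of purine and pyrimidine went on for at least 5 bp on both sides of the tract, in 36 on 1 side, and in 10 on neither. A stretch of at least 30 bp of alternating purine and pyrimidine stood in 66 of 80 peaks (82.5%, 72.7% to 89.3%) and in 28.3% of the other distal peaks. Among the 501 peaks with a long CA or TG repeat the share was 99.2% (497 peaks), and these made up most of the 513 other distal peaks that had such a stretch. A CA or TG repeat of 12 to 19 bp was present in 55 of 80 (68.8%, 57.9% to 77.9%). In the other distal peaks this share was 1.77%, but these include the 501 whose repeat is longer, and 29.4% held one of 12 bp or more of any length. In Icam1 a TG repeat ran into the tract on both sides, as the lower-case letters around its capitals show.

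G-quadruplex motifs were scarce at these peaks. The motif sought was 4 runs of at least 3 G separated by 1 to 7 bases, on either strand, and 8 of 80 peaks held it (10.0%, 5.16% to 18.5%). In the other distal peaks 1092 of 1812 did (60.3%, 58.0% to 62.5%), a difference of −50.3 percentage points (−55.6 to −41.5). The peaks with a long CA or TG repeat had it less often still, in 23 of 501 (4.59%, 3.08% to 6.79%). Runs of at least 20 G or C of any order were present in 53.8% and 59.4%, with a difference whose interval includes 0 (−5.63 points, −16.7 to 5.12). The median GC content was 49.5% (48.1% to 51.5%) against 53.7% (53.3% to 54.1%) in the other distal peaks and 49.0% (48.6% to 49.6%) in those with a long CA or TG repeat. CpG density was 4.61 per 100 bp (4.26 to 4.96), a value that the required tract itself raises, against 3.51 (3.39 to 3.62) and 4.42 (4.29 to 4.51). With alternating C-G tracts of at least 12 bp taken out of every peak, the rest held 1.58 CpGs per 100 bp (1.27 to 1.89), against 2.33 (2.23 to 2.43) and 1.25 (1.14 to 1.40). Outside their tracts the peaks thus had fewer CpGs than the other distal peaks.

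By surroundings, the peaks were put in 1 class each, first by GC content, then by GA or CT repeat, then by CA or TG repeat. The 9 peaks with a GA or CT repeat of at least 20 bp, as near Tspan8 and in Rapgef4, had a median fold enrichment of 5.05 (4.50 to 7.17), and some of them held a shorter CA or TG repeat as well. The 58 further peaks with a CA or TG repeat of 10 to 19 bp had a median of 5.42 (5.02 to 5.86). Of the rest, 6 lay in other alternating purine and pyrimidine sequence, with a median of 5.41 (4.13 to 8.40). The 2 with none of these surroundings had 6.63 and 7.65. The 5 peaks with a GC content of at least 60% ran from 3.59 to 5.24 with a median of 4.07. The higher ones among them were close to the median of 5.26 of all 80. They included intron 1 of Nr2f2, a nuclear receptor (5.24), Mllt3 (5.17) and Pebp4 (3.68), which were named after their values were seen. All 5 had tracts of 18 bp or less, so that tract length and GC content cannot be told apart in them. Few peaks could be aligned with each other. In 6 of them, in or near Icam1, Osbpl7, Celsr2, Arhgap29, Grifin and 1600020E01Rik, 94 to 141 bp aligned with 79.8% to 91.5% identity, and the peaks near Efna5 and Gm7931 aligned over 113 bp with 87.6% identity. Fold enrichment among the first 6 ran from 4.10 near Osbpl7 to 8.04 in Icam1.

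Summits lay close to the tracts, but the rule itself places the tract inside the peak, which limits the distance. The summit fell inside the tract in 20 of 80 peaks (25.0%, 16.8% to 35.5%), within 50 bp of it in 61 (76.3%, 65.9% to 84.2%) and within 100 bp in 77 (96.3%, 89.6% to 98.7%). The median distance to the nearest base of the tract was 17 bp (9 to 32). The distance from the tract centre to the summit had a median of 25.5 bp (20 to 41), close to that from the midpoint of the peak to the summit, 27 bp (18 to 35), and reads were extended to 200 bp by the authors. From the tract centre to the midpoint of the peak it was 28.5 bp (21 to 40). The summit was thus not clearly nearer to the tract than the middle of the peak was. On the plus strand 45 summits lay before the centre of the tract and 35 after it.

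**Figure D3:**
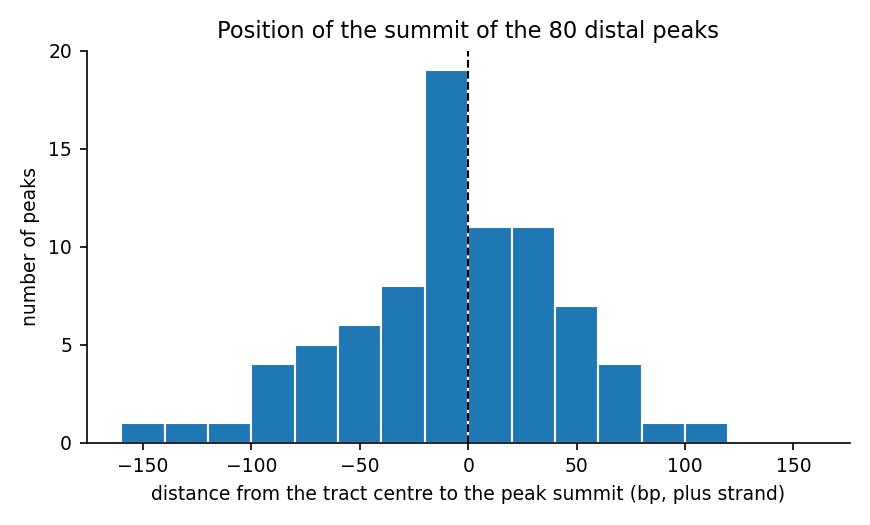
Number of peaks (y axis, of 80) by the distance in bp from the centre of the alternating C-G tract to the peak summit (x axis, bins of 20 bp). The summits gather around the dashed line at the tract centre, with 77 within 100 bp of the nearest tract base.

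By annotation 39 of the 80 summits lay in introns (48.8%, 38.1% to 59.5%), 38 were intergenic and 3 lay in UTRs, of Ergic2, Pla2g7 and Npy1r. A protein-coding gene held 40 of them, and 11 lay in the first intron of such a gene. Among the other distal peaks 45.7% lay in an annotated gene of any type, a share to be set beside all the summits in introns and UTRs here. First introns were not counted among the other distal peaks. The median distance to a TSS was 15.1 kb, and 45 of 80 peaks (56.3%) were over 10 kb from every TSS against 68.5% of the other distal peaks (difference −12.2 points, −23.4 to −1.68). Over 50 kb the shares were 23.8% and 23.7%. Peaks were spread over 18 of the autosomes, from 1 to 8 each, with none on chromosomes 19, X and Y. Of all 5671 Chd1 KO peaks, those chromosomes held 181, 12 and 19.

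Of the 80 peaks, 2 shared at least 1 bp with a control peak (2.50%, 0.688% to 8.66%). Among all Chd1 KO peaks this share was 0.864%, and among all distal ones it was 2.59%, so that the peaks on C-G tracts stood at the background of distal peaks. The difference from the other distal peaks was −0.09 points (−2.09 to 6.10). The peaks with a CA or TG repeat of 20 bp or more reached 4.59% (23 of 501), a difference of −2.09 points (−4.94 to 4.26). Near Ppp4r2 the Chd1 KO fold enrichment was 8.40 from 42 reads and the control fold enrichment was 6.07 from 23 reads, with summits 37 bp apart. Near Tspan8, a tetraspanin gene, the values were 7.65 from 31 reads and 7.09 from 27 reads, with summits 10 bp apart. Both were among the strongest 5 peaks on C-G tracts in Chd1 KO.

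A peak missing from the control list can still have had signal, since that list started higher. Its weakest peak had a −log10 p-value of 7.13, and the weakest Chd1 KO peak one of 4.88. Of the 80 peaks, 76 stood at or above the control limit, against 90.9% of the other distal peaks. The lowest background was 3.18 reads in Chd1 KO and 2.95 in control, and with their reads scaled down by this ratio of 0.93, 69 of the 80 would still have been at or above the limit. Reads of control cells at the other 78 sites were not analysed here. In the control list itself, 23 of 54 peaks held a C-G tract of at least 12 bp (42.6%, 30.3% to 55.8%), and off chromosome Y 23 of 40 did (57.5%, 42.2% to 71.5%). Among distal Chd1 KO peaks 534 of 1892 held one, but the control peaks were not restricted to distal ones. The tracts of the 23 control peaks were 23 to 33 bp long with a median of 28 bp, and 21 of the 23 also had a CA or TG repeat of 20 bp or more.

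To set the peaks against the sites they could have come from, all alternating C-G tracts of at least 12 bp were located in mm9 on chromosomes 1 to 19 and X, and those over 1 kb from every TSS and outside coding sequence were kept. Of 3698 such tracts, 543 had their centre under a Chd1 KO peak (14.7%, 13.6% to 15.9%). Among 85989 other distal runs of G and C of at least 12 bp the share was 2.23%, and over all runs it was 2.75%. These tracts include those beside long CA or TG repeats.

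The share under a peak rose with tract length. It was 3.19% (2.42% to 4.19%) at 12 to 13 bp and 4.06% (2.96% to 5.55%) at 14 to 15 bp. It was 20.9% (18.3% to 23.9%, 170 of 812) at 16 to 19 bp and 61.8% (56.4% to 66.9%, 199 of 322) at 20 to 23 bp. At 24 to 27 bp it was 71.0% (61.1% to 79.2%, 66 of 93), and 22 of 23 tracts of 28 bp or more were under a peak (95.7%, 79.0% to 99.2%). Other runs of G and C in the same length classes were under a peak less often in each, with 2.28% at 16 to 19 bp, 5.72% at 20 to 23 bp and 35.7% at 28 bp or more. The length of a tract is that of its alternating part, which can sit in a longer run of G and C. Other runs were measured whole, so run length was not matched and its part in the differences was not tested. The difference was 56.1 points (50.6 to 61.3) at 20 to 23 bp. Control peaks lay on none of the 1537 tracts of 12 to 13 bp, which allows a share of up to 0.195%, and on none of the 812 of 16 to 19 bp, which allows up to 0.369%. They lay on 1 of 322 tracts of 20 to 23 bp, on 9 of 93 of 24 to 27 bp (9.68%, 5.18% to 17.4%) and on 13 of 23 of 28 bp or more (56.5%, 36.8% to 74.4%).

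**Figure D4:**
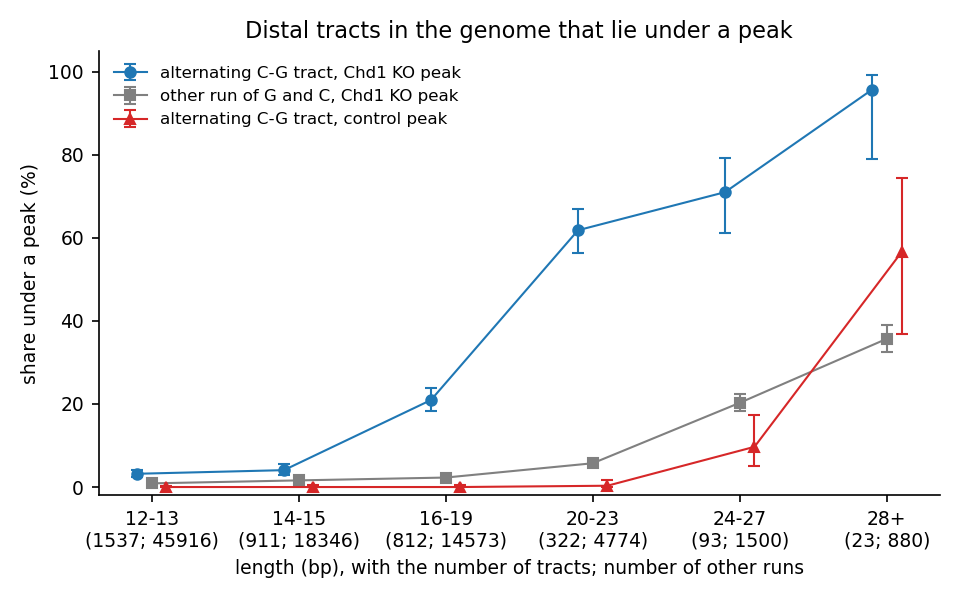
Share of distal sites in the genome whose centre lies under a peak (y axis, %) by length in bp (x axis, with the numbers of tracts and of other runs). Blue shows alternating C-G tracts and grey other runs of G and C under Chd1 KO peaks, red shows tracts under control peaks, and bars are Wilson 95% intervals. The blue points rise from 3.19% to 95.7%, above grey throughout.

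The shares did not differ beyond their intervals with the presence of a long CA or TG repeat. Without such a repeat within 150 bp of the tract centre, as in the 80 peaks, the shares were 3.56% (11 of 309) at 12 to 13 bp, 5.77% (9 of 156) at 14 to 15 bp, 23.9% (16.8% to 32.7%, 26 of 109) at 16 to 19 bp and 61.0% (45.7% to 74.3%, 25 of 41) at 20 to 23 bp. Over 16 bp and more the share was 35.4% (57 of 161) without and 36.7% (400 of 1089) with the repeat, a difference of −1.33 points (−8.88 to 6.82). By distance from genes the intervals also overlapped, with 34.5% within 10 kb of a TSS, 37.3% from 10 to 50 kb and 37.6% beyond 50 kb. By the GC content of the flanking 100 bp on each side the shares were 36.2% (32.5% to 40.1%) under 45%, 38.2% (34.4% to 42.2%) from 45% to 55%, and 6 of 38 tracts (15.8%, 7.44% to 30.4%) over 55%. The first and last of these differed by 20.4 points (5.35 to 29.7). Within 16 to 19 bp, where 28 of these 38 tracts fell, they were 19.5% (15.9% to 23.6%) and 14.3% (5.70% to 31.5%), with overlapping intervals. At 20 bp or more they were 70.9% (64.2% to 76.7%, 141 of 199) and 20.0% (5.67% to 51.0%, 2 of 10). Those intervals did not overlap, though the last rests on 10 tracts. Of the 44 tracts of 16 bp or more on chromosome X, 1 was under a peak (2.27%, 0.402% to 11.8%), against 37.8% of 1206 on autosomes. Other runs of G and C of that length stood at 0.320% on chromosome X and 5.79% on autosomes, so the lower share on X was not limited to C-G tracts.

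Within the middle lengths the share changed by large steps from 1 bp to the next, a pattern followed up after the shares were seen. At 18 bp 21 of 150 tracts were under a peak (14%, 9.34% to 20.5%) and at 19 bp 79 of 150 were (52.7%, 44.7% to 60.5%), a difference of 38.7 points (28.4 to 47.8). Tracts of even length come in 2 kinds. Those that start with C and end with G, the same on both strands, hold 1 CpG more than those of equal length that start with G and end with C. Among tracts of 16 and 18 bp, 24 of 60 of the first kind were under a peak (40%, 28.6% to 52.6%) and 23 of 356 of the second (6.46%, 4.34% to 9.51%), a difference of 33.5 points (21.7 to 46.4). At 18 bp these were 10 of 20 and 11 of 130. Without a long CA or TG repeat nearby, over both lengths, they were 9 of 13 and 2 of 44. With such a repeat nearby, where most of these tracts fell, they were 15 of 47 and 21 of 312, a difference of 25.2 points (13.2 to 39.6). At greater even lengths the intervals of the kinds overlapped, with 56.5% and 41.9% at 20 bp, 75% and 64.4% at 22 bp, and the reverse order, 66.7% and 73.1%, at 24 bp.

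Sorted by their number of CpGs, the tracts showed the largest step between 8 and 9. The share was 5.13% (3.75% to 6.99%) with 7 CpGs, 16.6% (13.3% to 20.5%) with 8, 48.7% (42.7% to 54.7%) with 9, 66.3% (58.7% to 73.1%) with 10 and 77.2% (67.6% to 84.6%) with 11. With 12 CpGs it was 67.4% (53.0% to 79.1%), an interval that overlaps that at 11. At 9 CpGs tracts of 18, 19 and 20 bp had close shares, 50.0%, 52.7% and 41.9%. At 8 CpGs they still differed, with 35.0% at 16 bp, 17.9% at 17 bp and 8.46% at 18 bp, the shorter tract having the higher share. Tract length, CpG number and the base at the ends move together, and their separate parts were not tested. Among the 80 peaks, 11 tracts started with C and ended with G, as near SNORA17, 19 started with G and ended with C, and 50 had an odd length. Their median fold enrichments were 4.91 (3.68 to 7.22), 5.26 (4.54 to 6.58) and 5.42 (4.92 to 5.90).

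**Figure D5:**
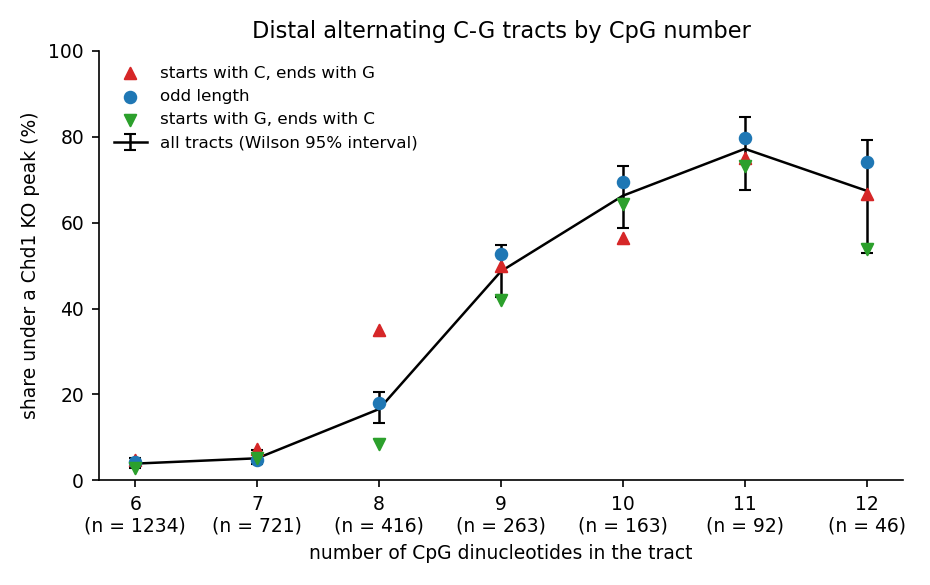
Share of distal alternating C-G tracts with their centre under a Chd1 KO peak (y axis, %) by the number of CpG dinucleotides in the tract (x axis, with the number of tracts). The black line gives all tracts with Wilson 95% intervals, rising from 5.13% at 7 CpGs to 77.2% at 11, and symbols give the tracts by their end bases, which spread most at 8 CpGs.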

How the data were processed

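DSB-seq of Chd1 KO and control ES cells, 2 replicates each, was analysed from the peak lists. The authors mapped reads to mm9 with Bowtie2, discarded reads with low mapping quality and position duplicates, combined replicates, ran MACS2 with reads extended to 200 bp and q-values up to 0.05, and discarded blacklisted peaks. The fold enrichment, a ratio, and the −log10 p-value and q-value at each summit are as deposited by the authors and are not scaled between genotypes. Library totals are not in these lists. The ChIP-seq samples were not analysed here.

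Reads and background at summits were recovered from the deposited fold enrichment and Poisson p-value, reproducing that −log10 value to within 0.000135. Annotation was GENCODE M1. Where several genes held a summit, protein-coding and shorter ones were preferred. Tracts were located on the mm9 sequence, and a tract counted as under a peak when its centre was. Medians have 95% order-statistic intervals, shares Wilson and differences of shares Newcombe intervals, and a count of 0 allows up to 3 counts. Members were aligned to each other, with 200 bp on each side, by blastn, and alignments of at least 80 bp were kept. Functions were checked on simulated data.

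The text names the 8 peaks with the highest fold enrichment, the 5 with the longest tract and those sharing bases with a control peak. One peak chosen this way is left unreported. Further names are of peaks in UTRs, in alignments or with a high GC content. Bard1 is named as a nearest protein-coding gene, which is left out for the other peaks whose nearest TSS is not protein-coding. The peaks, lists, rules and alternatives were chosen with earlier results of these data known. Alternatives changed tract length, TSS distance and set, peak position, q-value, fold enrichment, repeat and chromosome filters, merging and overlap. Python 3.11.15, NumPy 2.4.6, SciPy 1.17.1, pandas 2.3.3, pysam 0.24.0, samtools 1.23.1, blastn 2.17.0 and Matplotlib 3.10.9 were used.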

Additional observations from a re-analysis of the deposited data

How the results depend on the processing

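No paired analysis was possible because the replicates of each genotype were combined by the authors before peaks were called, and for the same reason no replicate could be left out. Of 157 recomputed values, 145 stayed within the interval of the main value or, for counts, within 1.5 times of it. This count includes alternatives that changed nothing for the 80 peaks. Peak midpoints, autosomes only and merging left 80 peaks with the same median fold enrichment of 5.26. Both other rules for overlap with a control peak kept the share at 2.50%. With tracts of at least 20 bp there were 33 peaks on C-G tracts, with a median fold enrichment of 5.79, a difference of 1.01 from the other distal peaks and 26 reads at the summit. There were 534 such peaks with those on long CA or TG repeats kept, and 25 with repeats of 12 bp or more left out. The median fold enrichment stayed above that of the other distal peaks under every alternative.

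For tracts in the genome, 33 of 36 values by length stayed within their intervals. With tracts near a long CA or TG repeat left out, the share was 5.77% at 14 to 15 bp, 50.0% (5 of 10 tracts) at 24 to 27 bp and 100% (1 tract) at 28 bp or more. Restricted to tracts over 5 kb from every TSS, the difference by TSS distance changed from 3.10 to −5.16 points and that by a long CA or TG repeat from −1.33 to 1.02 points, and the main intervals of both include 0. The difference by end bases at 16 and 18 bp, with alternatives chosen after seeing the data, went from 33.5 to 64.7 points with the tracts near a long repeat left out. That value rests on 13 and 44 tracts, and among the tracts near a long repeat the difference was 25.2 points. The weakest Chd1 KO summit had 13 reads and the weakest control summit 17, so sites with fewer reads are beyond these lists.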
